A study of Homo sapiens with 26 samples.

Results

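Baseline gene expression was compared between 12 multiple myeloma (MM) and 14 diffuse large B-cell lymphoma (DLBCL) cell lines, which are all 26 lines of the series, over every probe-set of the array. The groups follow the disease given for each line. The DLBCL group holds DB, FARAGE, HBL-1, NU-DHL-1, NU-DUL-1, OCI-Ly19, OCI-Ly7, OCI-Ly3, U2932, RIVA, SU-DHL-4, SU-DHL-5 and SU-DHL-8, and MC-116, which is labelled as an undifferentiated lymphoma. The MM group holds KMM-1, KMS-11, KMS-12-BM, KMS-12-PE, LP-1, MM1S, MOLP-8, NCI-H929, OPM-2, RPMI-8226 and U-266, and AMO-1, which is labelled as a plasmacytoma. All lines were drug naive and grew in RPMI or IMDM medium with serum, OCI-Ly3 in human serum and the others in fetal bovine serum (FBS). The serum level differed between lines, with 15% or more in 5 MM and 5 DLBCL lines and 10% in the others. The study used the lines to relate baseline expression to drug response, which is not taken up here. Each line gave 1 array, so a cell line is the replicate, there are no technical replicates, and p-values measure the spread between lines. KMS-12-PE and KMS-12-BM came from the same patient and are therefore not fully independent.

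DLBCL arises from mature B cells, many of them at the germinal centre stage, which carry an antigen receptor on the surface and depend on its signals. MM arises from plasma cells, the end stage of the same lineage, which take down the receptor and its transcription factors and turn into secretory cells that fold, glycosylate and export large amounts of immunoglobulin. The endoplasmic reticulum (ER) grows in this step under the control of the unfolded protein response (UPR), a set of pathways that sense unfolded protein and raise chaperones, translocation channels and degradation factors.

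The deposited values are on the log2 scale after robust multi-array average (RMA) normalisation, and a difference of 1 is a fold change of 2. Values are without detection calls, so a low value can be background, a fold against a group of low values is a ratio of RMA values and not a measured ratio of RNA, and levels are compared between lines for the same probe-set only. Positive differences mean a higher value in the MM lines, ± is the standard error (SE), and a gene was called at an adjusted p under 0.05 in limma (n = 12 and 14 in each comparison unless stated). Of 54613 probe-sets, 6285 were called (11.5%), with 3078 higher (5.64%) and 3207 lower (5.87%) in the MM lines. Genes were counted by the brightest of their probe-sets, by the mean over all lines, and 2487 of 19775 genes were called (12.6%), which were 1389 higher (7.02%) and 1098 lower (5.55%) in MM. The median difference over all genes was -0.01. Of the called genes, 1138 differed by over 1 on the log2 scale (5.75% of all genes), 675 of them higher (3.41%) and 463 lower (2.34%). The same threshold left 2600 probe-sets (4.76%), which were 1460 higher (2.67%) and 1140 lower (2.09%). Every one of the 26 lines correlated better over all probe-sets with the mean of the other lines of its own group (r from 0.947 to 0.974) than with that of the other group (0.912 to 0.950). This included AMO-1 (0.969 against 0.950) and MC-116 (0.968 against 0.934). Since these are bulk measurements, fewer cells that express a gene and less RNA per cell cannot be told apart.

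**Figure D1:**
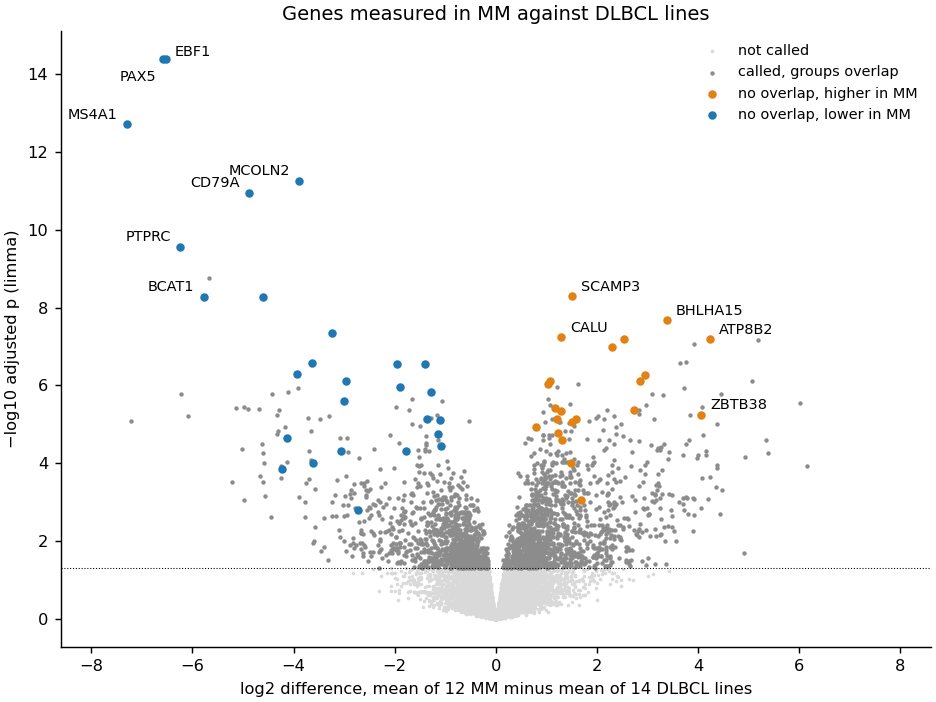
Log2 difference of the means of 12 MM and 14 DLBCL lines (horizontal axis) against -log10 of the adjusted p from limma (vertical axis) for every gene, 1 point a gene. Coloured points are the 49 genes whose groups do not overlap, 27 lower and 22 higher, and the lower ones reach larger differences (-7.30 for MS4A1) than the higher ones (4.23 for ATP8B2).

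The genes that set the diseases apart line by line were few. In 49 genes (0.248% of 19775) the lowest line of 1 group lay above the highest line of the other, 27 of them lower (0.137%) and 22 higher (0.111%) in MM. Over probe-sets the count was 103 (0.189%), which were 62 lower (0.114%) and 41 higher (0.0751%). EBF1, a transcription factor that starts and maintains the B-cell programme, had the widest gap. It ranged from 8.39 to 11.60 (median 9.84) in the DLBCL lines and from 3.31 to 3.86 (median 3.50) in the MM lines, a difference of -6.53 ± 0.26 (adjusted p = 4.1e-15). The gap of 4.53 between the lowest DLBCL line and the highest MM line was larger than the whole range of either group. The B-cell markers MS4A1, which encodes CD20, and PAX5 followed, with gaps of 3.27 and 3.02.

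Several genes with wide gaps are not textbook lineage markers. BCAT1, the cytosolic enzyme that transaminates branched-chain amino acids, lay between 10.78 and 12.49 (median 11.97) in the DLBCL lines and between 4.02 and 8.99 (median 5.48) in the MM lines. The difference of -5.78 ± 0.47 corresponds to 55.1-fold (adjusted p = 5.2e-09), and all 4 of its probe-sets were called lower. The highest MM line, MOLP-8, was still 1.79 below the lowest DLBCL line. MCOLN2, a cation channel of endosomes and lysosomes, differed by -3.89 ± 0.22 with a gap of 1.57, and its DLBCL lines ranged from 8.62 to 10.53 against 5.06 to 7.05 in MM. GPR65, a receptor that senses extracellular protons, was at 3.29 to 4.12 in MM and at 4.93 to 9.41 in DLBCL, so the MM lines were uniform and the DLBCL lines spread widely. ZC3H12D, an RNA-binding protein of lymphocytes, fell by 4.61 and WDFY4, which takes part in antigen presentation, by 3.24. The kinase TAOK3 fell by 1.90 with a gap of 0.91. PTPRC, the phosphatase CD45 that sets the threshold of antigen receptor signalling, fell by 6.24 and had only AMO-1 (7.42) near the lowest DLBCL line (8.52). CD69, an early activation antigen, had a gap of only 0.04. Its DLBCL lines spread from 3.68 to 10.88, and every MM line lay between 2.91 and 3.64.

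Among the 22 genes higher in MM without overlap, ATP8B2, a lipid flippase subunit of the P4-ATPase family, had both the largest difference and the widest gap. Its lowest, median and highest values were 4.70, 6.71 and 8.45 in DLBCL and 9.75, 10.74 and 11.84 in MM, a difference of 4.23 ± 0.39 (18.8-fold, adjusted p = 6.4e-08). No DLBCL line came within 1.31 of the MM lines. NMT2, which attaches myristate to proteins, had a difference of 2.73, PSEN2, a catalytic subunit of the γ-secretase, one of 2.53, and ZBTB38, a zinc finger protein that binds methylated DNA, one of 4.06. SCAMP3, a carrier protein of the post-Golgi membrane, rose by 1.50 ± 0.12 with a narrow spread in both groups (9.30 to 10.37 in DLBCL and 10.80 to 11.86 in MM). CALU, a calcium-binding protein of the secretory pathway, rose by 1.29, but it was not called when the probe-set of the largest SD over DLBCL lines stood for the gene (0.52, adjusted p = 0.16). BMP8B, a ligand of the TGF-β family, rose by 2.95 at its brightest probe-set. Of its 3 probe-sets 2 were called higher, and the differences of the 3 ran from 0.11 to 2.95. FAM230C, which belongs to a family of near-identical copies, rose by 1.68, and the copies cannot be told apart with certainty here. PRDM1, the repressor that drives plasma cell differentiation, separated the groups only by a margin that rounds to 0.00 at its brightest probe-set (difference 1.21), and its 3 probe-sets differed by between 1.21 and 4.81. SDC1, the plasma cell surface proteoglycan CD138, did not separate them: KMS-12-BM was at 6.49, below the highest DLBCL line at 7.17, and the next MM line was at 9.48.

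**Figure D2:**
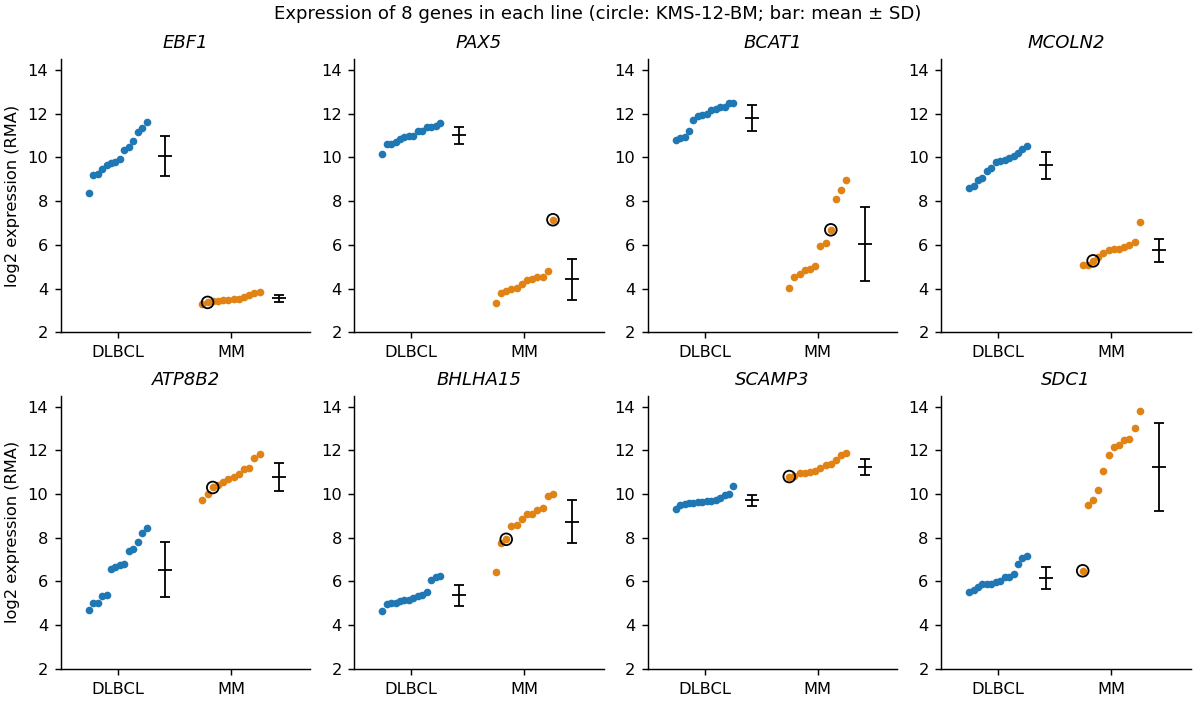
Log2 RMA value of every line (1 point a line, DLBCL and MM side by side) for EBF1, PAX5, BCAT1, MCOLN2, ATP8B2, BHLHA15, SCAMP3 and SDC1, with the mean ± SD of each group as a bar and KMS-12-BM circled. The groups do not overlap in any of them except SDC1, where KMS-12-BM at 6.49 lies within the DLBCL lines.

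Many genes of the secretory pathway were higher in MM, from entry into the ER to the Golgi. Lists of genes were drawn up from textbook knowledge for translocation into the ER, N-glycosylation, chaperones and disulfide formation, the UPR, ER-associated degradation, vesicle traffic between ER and Golgi, and ER calcium. The lists were drawn up with earlier results of these data known. Counts of called members, in these and later lists, stand beside 7.02% of all genes higher and 5.55% lower. Together these secretory lists held 167 measured genes, of which 81 were called higher and 3 lower in MM. Their median level per line, taken over all these genes, ran from 9.51 (SU-DHL-4) to 10.06 (U2932) in the DLBCL lines and from 10.11 (KMM-1) to 10.92 (MOLP-8) in the MM lines, with medians of 9.82 and 10.60. The groups did not overlap in this level, although most single members did, and 8 genes had a difference over 2. Most differences in the pathway were thus small for the single gene. MZB1, an ER protein that helps to assemble immunoglobulin, was not called over all lines (0.98 ± 0.65, adjusted p = 0.37), and its difference was -0.31 (adjusted p = 0.89) among the lines grown in RPMI with 10% FBS.

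For translocation, 12 of 24 genes were higher (50%, against 7.02% of all genes) and none lower (median difference 0.71). SPCS1, a subunit of the signal peptidase that removes signal sequences, separated the groups, with 10.83 to 12.39 in DLBCL and 12.69 to 13.62 in MM (difference 1.29 ± 0.16, adjusted p = 4.5e-06). SEC61A1, the pore of the translocation channel, rose by 1.11, SSR2, a subunit of the translocon-associated protein complex, by 1.33, SRPRB, which anchors the receptor of the signal recognition particle, by 1.20, and TRAM2 by 2.42. By contrast, the subunits of the signal recognition particle itself, SRP9, SRP14, SRP19, SRP54, SRP68 and SRP72, were not called, with differences from -0.36 to 0.31. For N-glycosylation, 15 of 24 were higher and none lower (median 0.87). They included subunits of the oligosaccharyltransferase that transfers the glycan to the growing chain, such as KRTCAP2 (1.52) and RPN2 (1.22). GANAB (0.93), the catalytic subunit of the glucosidase that trims the glycan, was also among them. Of the 2 probe-sets of KRTCAP2 1 was called, and the other differed by 0.28.

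The chaperones and disulfide enzymes formed the list with the largest median of the secretory lists (0.97), with 23 of 30 genes higher and none lower. DNAJC1, a J-domain cochaperone of the ER, rose most, from 6.15 to 10.81 (median 9.24) in DLBCL to 9.54 to 13.62 (median 12.29) in MM, which is a difference of 3.19 ± 0.46 (adjusted p = 4.5e-05). TXNDC11, a thioredoxin domain protein of the ER, rose by 2.05, DNAJB9, a cochaperone that feeds back on the UPR sensor, by 1.95 and P4HB, the protein disulfide isomerase, by 1.20. The general chaperones were also higher. HSPA5, which encodes BiP, was at 10.35 to 12.76 in DLBCL and 12.14 to 13.27 in MM (difference 1.07 ± 0.24), and HSP90B1, which encodes GRP94, rose by 1.51 and CALR, which encodes calreticulin, by 0.49. The ranges of HSPA5 overlapped in the upper DLBCL lines, led by HBL-1. Of the 2 probe-sets of HSPA5 1 was called, and the other differed by 0.55.

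Of the 3 UPR sensors, ERN1 and ATF6 were called higher. ERN1, the sensor IRE1 that splices the XBP1 message, had its lowest, median and highest values at 4.95, 6.99 and 8.52 in DLBCL and at 7.70, 10.39 and 11.36 in MM, a difference of 3.32 ± 0.47 (9.99-fold, adjusted p = 3.3e-05). ATF6, the sensor that is cut in the Golgi to give a transcription factor, rose by 1.03 ± 0.11 without overlap of the groups, and all 4 of its probe-sets were called higher. The third sensor, EIF2AK3, which encodes PERK, had a similar difference to ATF6 but was not called (0.96 ± 0.38, adjusted p = 0.1), and the sensors were not tested against each other. Not called either were its downstream genes ATF4 (-0.17), DDIT3 (0.10), PPP1R15A (-0.14), TRIB3 (-0.30) and ASNS (-0.50). XBP1, the transcription factor made through IRE1, rose by 2.59 ± 0.56 at its brighter probe-set, while its other probe-set differed by 0.06, and its ranges of 5.73 to 11.02 in DLBCL and 9.58 to 12.92 in MM overlapped. CREB3L2, an ER-bound transcription factor, rose by 2.84 and WFS1, an ER membrane protein induced by the UPR, by 1.36. Of the 3 probe-sets of CREB3L2 2 were called, and the differences ran from 0.04 to 2.84. ATF5, a stress factor translated under PERK signalling, was the only member called lower (-2.29 ± 0.57). In all, 5 of 22 UPR genes were higher and 1 lower (median 0.19).

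Degradation and transport genes were called higher as well. In ER-associated degradation, 10 of 20 genes were higher and none lower (median 0.56). EDEM3, which trims mannose to mark misfolded glycoproteins, rose by 2.15 ± 0.31, SELENOS, an ER membrane selenoprotein of the retrotranslocation complex, by 1.65 and SEL1L, the partner of the HRD1 ubiquitin ligase, by 1.54. VCP, the ATPase that pulls substrates out of the membrane, was not called (0.03). In vesicle traffic, 13 of 36 genes were higher and none lower (median 0.54). SURF4, a cargo receptor, separated the groups (9.42 to 10.47 in DLBCL, 10.65 to 11.66 in MM, difference 1.07 ± 0.11), and KDELR1, which returns chaperones to the ER, rose by 1.37. Of 11 ER calcium genes, 3 were higher and 2 lower (median -0.14), but ATP2A2, counted as higher, lost its call in 16 of the 26 fits that left out 1 line and STIM2, counted as lower, in 10. TMCO1, an ER calcium channel, rose by 1.48, and ITPR1, the inositol trisphosphate receptor that empties the store, fell by 1.49.

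Nucleotide sugars feed glycosylation, and 5 of 16 genes of their synthesis and transport were higher (median 0.27). UAP1, which makes UDP-N-acetylglucosamine, was at 7.97 to 11.91 (median 9.94) in DLBCL and 10.99 to 14.04 (median 12.91) in MM, a difference of 2.65 ± 0.37 (6.28-fold). GFPT1, the first enzyme of the same hexosamine route, rose by 1.39, and SLC35B1, the carrier that brings ATP into the ER, rose by 1.18 and separated the groups. GMDS, which starts the synthesis of GDP-fucose, and CMAS, which activates sialic acid, were not called (-0.92 and -0.60).

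Fewer genes, those of chaperones among them, were called among lines grown alike. Among the 6 MM and 9 DLBCL lines in RPMI with 10% FBS, 5 of the 30 chaperone genes were called, with a median of 0.63, and HSPA5 (0.81, adjusted p = 0.21), HSP90B1 (0.86, 0.14), PDIA6 (0.68, 0.085) and CALR (0.33, 0.31) were not. KDELR3, a receptor of the same retrieval family as KDELR1, dropped from 2.63 over all lines to 0.74 (adjusted p = 0.42) there. Among the 9 MM and 6 DLBCL lines obtained from DSMZ, 17 chaperone genes were called with a median of 1.18. Vesicle traffic had 4 genes called in the first subset and 7 in the second, N-glycosylation 8 and 14, translocation 7 and 8, degradation 5 and 7, and none of these lists had a gene called lower in either. These fits hold fewer lines and had fewer calls over all genes, 1115 in the first subset and 902 in the second, against 2487. Of all genes with a chromosome, 3.36% were called higher in the first and 2.45% in the second, against 7.04% over all lines. What fewer lines and the medium each contribute cannot be told apart there. All 26 lines were also fitted with a term for 15% serum or more, in which every called secretory gene named here kept its direction and call.

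The promoters of 4 genes called higher are shown because they hold the ER stress response element (ERSE), the motif through which ATF6 and XBP1 are known to act on chaperone genes. The element was searched as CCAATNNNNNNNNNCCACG on both strands from 250 bases before to 50 bases after each RefSeq start. Given here are the 250 bases before the start from RefSeq (GRCh38.p14), 5′ to 3′ on the strand of the gene, with the matches in capitals. HSPA5 lies at chr9:125241344-125241593 on the minus strand, HSP90B1 at chr12:103930160-103930409 on the plus strand, PDIA6, a disulfide isomerase of the BiP complex, at chr2:10812786-10813035 on the minus strand and XBP1 at chr22:28800570-28800819 on the minus strand.
HSPA5: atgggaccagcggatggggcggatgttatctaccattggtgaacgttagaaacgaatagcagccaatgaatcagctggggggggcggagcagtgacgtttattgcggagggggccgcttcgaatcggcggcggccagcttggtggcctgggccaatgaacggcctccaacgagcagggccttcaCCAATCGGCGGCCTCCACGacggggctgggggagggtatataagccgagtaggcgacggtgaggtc
HSP90B1: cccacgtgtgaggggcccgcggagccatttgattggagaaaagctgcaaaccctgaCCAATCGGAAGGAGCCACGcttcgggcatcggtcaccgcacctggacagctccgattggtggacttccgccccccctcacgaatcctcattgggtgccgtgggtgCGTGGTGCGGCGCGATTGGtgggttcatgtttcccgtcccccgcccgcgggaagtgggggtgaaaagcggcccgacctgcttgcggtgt
PDIA6: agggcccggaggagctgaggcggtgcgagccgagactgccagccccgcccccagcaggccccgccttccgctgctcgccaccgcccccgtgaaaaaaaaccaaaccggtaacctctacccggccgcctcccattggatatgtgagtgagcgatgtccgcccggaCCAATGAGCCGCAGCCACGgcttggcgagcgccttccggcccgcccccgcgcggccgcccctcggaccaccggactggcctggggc
XBP1: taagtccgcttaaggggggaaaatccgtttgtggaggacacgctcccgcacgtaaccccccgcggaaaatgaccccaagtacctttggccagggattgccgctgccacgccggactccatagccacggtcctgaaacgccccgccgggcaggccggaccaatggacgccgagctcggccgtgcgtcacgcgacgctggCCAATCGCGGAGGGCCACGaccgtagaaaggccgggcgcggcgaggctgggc

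The match starts 66 bases before the start in HSPA5, 86 in PDIA6 and 52 in XBP1, and HSP90B1 has a match on each strand. The element was rare, in 27 of 35116 promoters (0.0769%) and in 18 of 15384 measured genes with a promoter (0.117%). Of the chaperone genes with a promoter, 5 of 22 called higher held it, namely CALR, CANX, HSP90B1, HSPA5 and PDIA6, and so did 2 of 5 not called, CRELD2 (0.63) and ERO1B (-0.88). The core of the UPR element, searched as TGACGTG, was found in 9 of 71 secretory genes called higher (12.7%), in 13 of 73 not called (17.8%) and in 447 of all measured genes (2.91%). ERSE was in 6 of the same 71 (8.45%) and in 3 of the 73 (4.11%). A match is a description of the letters and does not show that a factor binds there.

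**Figure D3:**
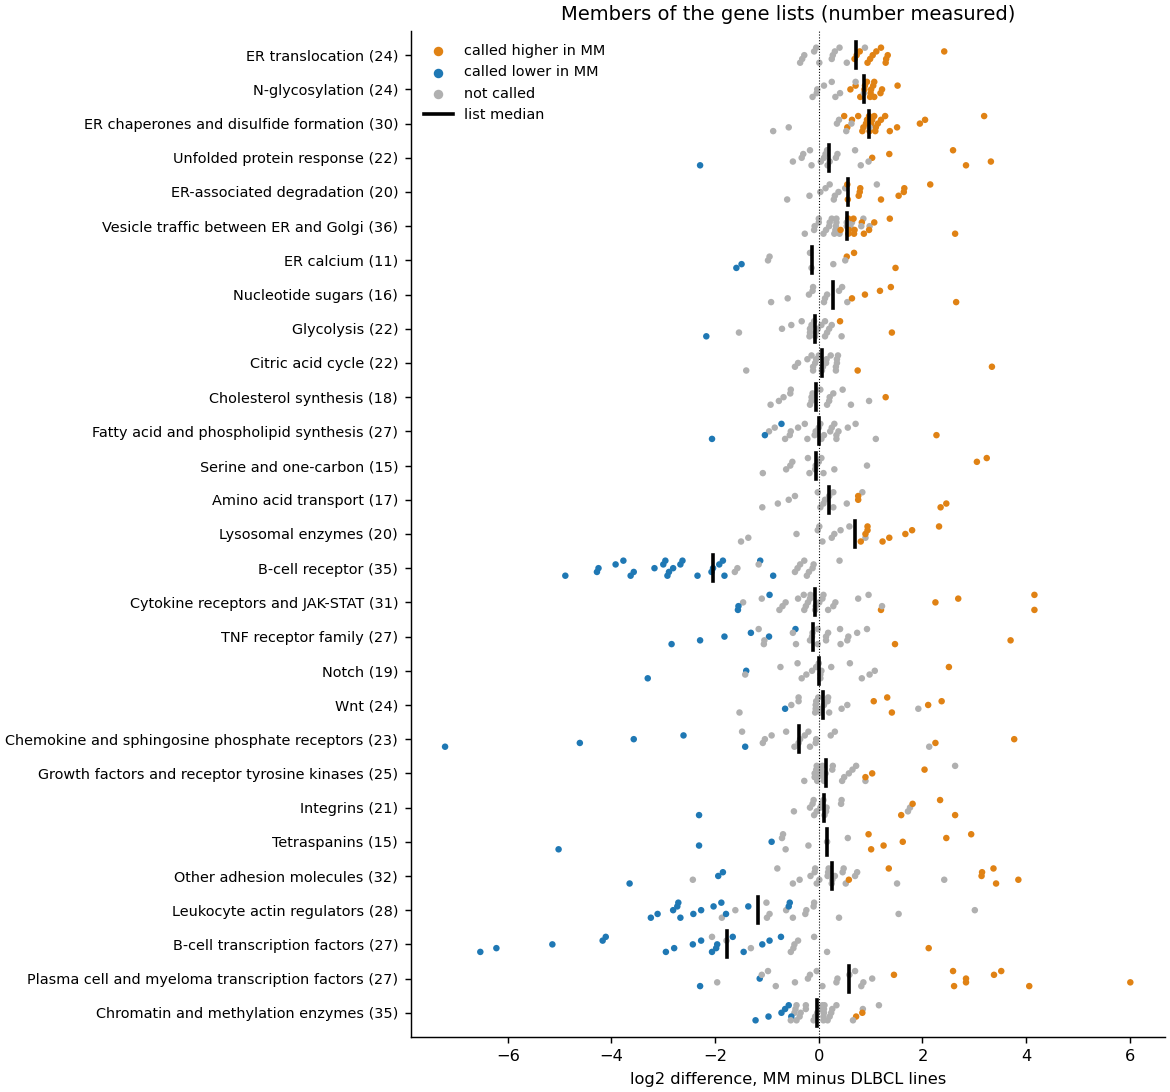
Log2 difference between the means of 12 MM and 14 DLBCL lines (horizontal axis) for each measured member of 29 gene lists (rows), 1 point a gene with called genes coloured, and a line at the median of each list. The medians of the secretory lists other than ER calcium lie to the right of 0, up to 0.97 for the chaperones, and those of the B-cell receptor (-2.04), B-cell transcription factor (-1.78) and leukocyte actin lists (-1.18) lie to the left.

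Central metabolism differed in single enzymes and hardly as whole pathways. Of 22 glycolysis genes, 2 were higher and 1 lower (median -0.07). HK1, the hexokinase of most tissues, was at 8.89 to 10.91 (median 10.27) in DLBCL and at 5.92 to 9.89 (median 8.20) in MM, a difference of -2.17 ± 0.42 (adjusted p = 0.0011). HK2, the other main hexokinase, was not called (-0.06). ALDOA, an aldolase, rose by 0.41 and PDK1, the kinase that shuts off pyruvate dehydrogenase, by 1.41, although PDK1 was at 0.74 and not called within the lines from DSMZ. The citric acid cycle list had 2 of 22 genes higher (median 0.07), cholesterol synthesis 1 of 18 higher (PMVK, phosphomevalonate kinase, 1.29; median -0.05) and fatty acid and phospholipid synthesis 1 of 27 higher and 3 lower (median 0.00). The gene higher was the fatty acid elongase ELOVL7, and its call was lost in 13 of the 26 fits that left out 1 line. SPTLC2, a subunit of the enzyme that starts sphingolipid synthesis, fell by 1.04 and SGPP1, which removes phosphate from sphingosine phosphate, by 2.06. SGPP1 was not called within the lines in RPMI with 10% FBS (-2.47) or within those from DSMZ (-2.19). The shares called in these lists are near or below the 7.02% and 5.55% of all genes, apart from the lipid genes called lower.

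Amino acid handling showed larger differences in a few genes. The lower value of BCAT1 in MM is given above. GLDC, which splits glycine in mitochondria, had a difference of 3.24 ± 0.78 and ALDH1L2, a mitochondrial folate enzyme, one of 3.05 ± 0.74, but the other 13 of 15 serine and one-carbon genes were not called (median -0.06), and both were not called within the lines in RPMI with 10% FBS (1.99 and 2.51). ME1, the cytosolic malic enzyme that yields NADPH, spread from 3.46 to 9.80 in DLBCL and from 3.53 to 10.75 in MM, with medians of 3.72 and 8.77 (difference 3.34 ± 0.85). Both groups thus held lines with low and lines with high values. Of 17 amino acid transporters, 4 were higher and none lower (median 0.20), led by SLC16A10, which carries aromatic amino acids, at 2.46 ± 0.46. Lysosomal enzymes were the metabolic list with the largest median (0.70), with 9 of 20 genes higher and none lower. CTSA, which encodes the protective protein, was at 8.26 to 9.91 in DLBCL and 9.70 to 12.60 in MM (difference 1.80 ± 0.25), NEU1, the sialidase it protects, rose by 1.67, and the protease CTSD rose by 1.23 and separated the groups. CTSB rose by 2.32, while CTSS (-1.50) and CTSH (-1.36), the cathepsins known from antigen-presenting cells, were not called.

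Many genes of the B-cell receptor and its signalling were lower in MM. Of 35 measured, 23 were lower, none higher and 12 not called (median -2.04). The median level over the list ran from 8.51 to 10.19 in DLBCL lines and from 6.22 (KMM-1) to 8.36 (AMO-1) in MM lines, without overlap. CD79A, which carries the signal of the receptor into the cell, was at 10.09 to 12.50 (median 11.64) in DLBCL and 6.00 to 8.58 (median 6.30) in MM, a difference of -4.89 ± 0.29 (29.7-fold, adjusted p = 1.1e-11). Its partner CD79B fell by 3.63 and PIK3CD, the lipid kinase subunit of leukocytes, was 8.01-fold lower, both without overlap. Of the 3 probe-sets of CD79B 1 was called, and their differences ran from -3.63 to -0.09. SYK, the kinase that binds CD79A, was at 8.94 to 12.03 in DLBCL and at 4.80 to 9.71 in MM (difference -4.28 ± 0.52). The adaptor BLNK fell by 4.25, CD72, an inhibitory coreceptor, by 3.92, BTK by 2.96 and PLCG2, which cleaves phosphoinositides, by 2.92. Some MM lines lay within the DLBCL ranges, namely KMS-12-BM (11.40), RPMI-8226 (10.47) and MM1S (9.26) for BLNK, and KMS-12-BM (10.02), RPMI-8226 (9.68) and AMO-1 (9.07) for BTK. KMS-12-BM had the lowest MM value of SYK (4.80). BCL10 (-0.46) and MALT1 (-0.41), which link the receptor to NF-κB and also serve other receptors, were not called.

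Cytokine receptors differed by type. IL6R, the binding chain of the receptor for interleukin 6, a growth factor of plasma cells, had values of 3.87, 5.37 and 9.41 (lowest, median and highest) in DLBCL and 5.57, 10.01 and 11.73 in MM, a difference of 4.16 ± 0.62 (adjusted p = 6.3e-05). Its signalling partner IL6ST, which encodes gp130, had the same difference, 4.16 ± 0.61, with KMS-12-BM (8.07) as the one MM line within the DLBCL range. The kinase PIM2 and the feedback inhibitor SOCS2, both targets of such receptors, rose by 2.25 and 2.69. Of the 3 probe-sets of SOCS2 2 were called, and the differences ran from 0.03 to 2.93. SOCS2 was not called within the lines in RPMI with 10% FBS (1.89) or within those from DSMZ (3.14). JAK1 (-0.06), JAK2 (-0.21) and STAT3 (-0.17), which carry the signal, were not called. IL4R, the receptor for interleukin 4, fell by 1.56 and SOCS1 by 1.55. Over the list, 5 of 31 genes were higher (16.1%, against 7.02% of all genes) and 3 lower (9.68%, against 5.55%), with a median of -0.07.

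In the TNF receptor family, 2 of 27 genes were higher (7.41%, near the 7.02% of all genes) and 6 lower (22.2%, against 5.55%), with a median of -0.12. TNFRSF17, the plasma cell receptor BCMA, was at 9.70 to 14.15 (median 12.99) in MM, while the DLBCL lines covered 3.60 to 13.14 (median 8.73), with U2932 the highest (difference 3.70 ± 0.72). CD40, which receives T-cell help, fell by 1.82 and CD27, a memory B-cell marker, by 2.84, with KMS-12-BM at 11.44 against an MM median of 5.36. TNFRSF13B (-0.12) was not called and TNFRSF13C, the BAFF receptor, fell by 0.45. IGF1R, the receptor for insulin-like growth factor 1, rose by 2.04 ± 0.41. The growth factor list had 3 of 25 genes higher (12%, against 7.02% of all genes, median 0.13). Of these, IGF1 lost its call in 20 of the 26 fits that left out 1 line. The Notch list had 1 of 19 higher (5.26%, against 7.02% of all genes) and 2 lower (median 0.00), and 1 of those lower, DTX4, lost its call in 8 of the 26 fits that left out 1 line. JAG1, a Notch ligand, rose by 2.51 ± 0.34, and DTX1, a Notch regulator, fell by 3.30 ± 0.41. In the Wnt list 5 of 24 were higher and 1 lower (median 0.08), led by the receptor FZD7 (2.37 ± 0.32). The count of 5 became 3 without FARAGE, SU-DHL-5, SU-DHL-8, MC-116, KMM-1, MM1S or MOLP-8, each left out alone, while FZD7 was called in all of these fits.

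Among receptors that guide migration and their regulators, the regulator RGS13 and the receptors CCR7 and GPR18 were lower and the receptor CCR10 higher in MM. Of 23 chemokine and sphingosine phosphate receptors and their regulators, 2 were higher (8.7%, near the 7.02% of all genes) and 5 lower (21.7%, against 5.55%), with a median of -0.39. The other gene higher, CCR1, lost its call in 17 of the 26 fits that left out 1 line. RGS13, a regulator of G-protein signalling in the germinal centre, had a median of 12.27 in DLBCL but ranged down to 3.29 in NU-DUL-1, while MM lines were at 2.93 to 3.73 (difference -7.21 ± 0.92). Without NU-DUL-1 its groups would not overlap. CCR7, which brings cells into lymph nodes, fell by 3.57 and GPR18 by 4.61. Within the lines in RPMI with 10% FBS (-3.50) and within those from DSMZ (-2.12), CCR7 was not called. CCR10, a receptor for mucosal and skin chemokines known from plasma cells, was at 4.55 to 8.70 (median 5.19) in DLBCL and 6.99 to 11.77 (median 9.69) in MM, a difference of 3.77 ± 0.54. CXCR4, the marrow homing receptor, was not called (-0.63 ± 0.72, adjusted p = 0.63), with medians of 11.40 in DLBCL and 10.35 in MM.

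Adhesion genes also moved in both directions. SELPLG, the selectin ligand PSGL-1, was at 5.33 to 8.12 (median 6.06) in DLBCL and 5.83 to 11.94 (median 10.58) in MM, a difference of 3.85 ± 0.48 (14.4-fold, adjusted p = 5.8e-06). The lowest MM line, KMM-1, lay below the DLBCL median, so the groups overlapped. CADM1, an immunoglobulin-type adhesion molecule, rose by 3.42 and LGALS1, which encodes galectin-1, by 3.15. LGALS3, which encodes galectin-3, and SLAMF7, a surface receptor of plasma cells, were called with differences of 3.14 and 3.37, but the calls were lost in 15 and 17 of the 26 fits that left out 1 line. ALCAM, known as CD166, fell by 3.65 ± 0.56 and CD84 and SLAMF6, receptors of the SLAM family that act between lymphocytes, by 1.94 and 1.85. In the list of other adhesion molecules, 7 of 32 were higher and 3 lower (median 0.26), and the 7 became 4 without NCI-H929. Among 21 integrin chains 4 were higher and 1 lower (median 0.11). ITGB7, a partner of the α4 chain in homing, was called (2.63), but not in 6 of the 26 fits that left out 1 line. ITGB5 rose by 2.34, ITGA6 by 1.81 and ITGAV by 1.59, and ITGB2, the β chain shared by leukocyte integrins, fell by 2.31. No integrin was called higher within the lines from DSMZ (adjusted p from 0.054 for ITGAV to 0.31 for ITGB7), and ITGA6, ITGAV and ITGB7 were not called within those in RPMI with 10% FBS (1.79, 1.57 and 3.24). Among 15 tetraspanins, 6 were higher and 3 lower (median 0.16), and CD53, counted as lower, lost its call in 19 of the 26 fits that left out 1 line. CD37, a tetraspanin of mature B cells, fell by 5.02 ± 0.73, with KMS-12-BM (10.91) far above the MM median of 5.02. The other probe-set of CD37 differed by -0.08 and was not called. CD63 (1.62) and CD151 (1.25) rose.

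Genes that shape the actin cortex of leukocytes were lower in MM in 14 of 28 cases, with none higher (median -1.18). NCKAP1L, the haematopoietic subunit of the WAVE complex that starts actin branching, was at 9.31 to 11.30 in DLBCL and at 5.45 to 9.91 in MM (difference -2.81 ± 0.49). DOCK2, which activates RAC in lymphocytes, fell by 2.73 without overlap of the groups, while its other probe-set differed by -0.17 and was not called. ARHGAP25 fell by 2.71, the actin bundling protein LCP1 by 2.67 and FGD2 by 1.36. LCP1 was not called within the lines in RPMI with 10% FBS (-2.62) or within those from DSMZ (-2.39). WAS (-0.10) and RAC2 (-0.26), other leukocyte members of the same machinery, were not called. KMM-1 had the lowest level over the list (6.34), below OPM-2 (7.60) as the next line.

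The transcription factors of B cells and plasma cells moved in opposite directions. Of 27 B-cell factors, 17 were lower and 1 higher (median -1.78), and the level over the list did not overlap (9.11 to 10.52 in DLBCL, 6.96 to 8.66 in MM, the highest in KMS-12-BM). BCL6, the germinal centre repressor, ranged from 5.74 to 12.89 in DLBCL and from 3.01 to 6.41 in MM (difference -6.22 ± 0.70), and SU-DHL-8 was the one DLBCL line within the MM range. AFF3 fell by 5.14, IRF8 by 4.17, SPIB by 4.11 and BCL11A by 2.95. KLF2, a factor of resting lymphocytes, was the 1 member that rose, by 2.12, with 1.07 and no call among the lines in RPMI with 10% FBS. POU2AF1, the B-cell coactivator that plasma cells retain, was not called (-0.47 ± 0.37) and had its lowest value, 8.91, in KMS-12-PE.

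Of 27 plasma cell and myeloma factors, 9 were higher and 2 lower (median 0.59). RUNX2, best known for bone formation, had one of the largest differences of all named genes, with 3.02, 3.57 and 8.86 (lowest, median and highest) in DLBCL and 5.09, 10.70 and 12.15 in MM (6.01 ± 0.70, adjusted p = 2.9e-06). Its 6 probe-sets did not agree, since 3 were called and the differences ran from -0.03 to 6.01. BHLHA15, which encodes MIST1, a factor of secretory cells, was at 4.67 to 6.25 in DLBCL and 6.43 to 10.02 in MM, without overlap (3.38 ± 0.29). NFIL3, a leucine zipper factor, rose by 2.84 and KLF3, a repressor, by 1.59. IRF4, which plasma cells and activated B cells share, rose by 2.61 ± 0.70. The MM lines were uniform, at 11.58 to 12.90, and the DLBCL lines spread from 5.44 in DB to 12.54 in OCI-Ly3. HIF1A fell by 1.14. In a list of 35 chromatin and methylation enzymes, 2 were higher (5.71%, against 7.02% of all genes) and 6 lower (17.1%, against 5.55%), with a median of -0.03. UHRF1, which guides DNA methylation to new strands, fell most (-1.22 ± 0.28). DNMT1, the methyltransferase that UHRF1 guides, fell by 0.58, a call lost in 7 of the 26 fits that left out 1 line. Neither gene was called within the lines in RPMI with 10% FBS (-1.31 and -0.50) or within those from DSMZ (-0.97 and -0.59). The histone deacetylase HDAC1 fell by 0.97 and HDAC5 rose by 0.84.

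Markers of other cell types hardly differed between the groups. Short lists for T cells (6 genes), NK cells (5), myeloid cells (6) and fibroblasts (5) had no gene called, and their levels per line lay between 4.77 and 6.30 in DLBCL and between 4.76 and 5.63 in MM. Of 5 epithelial genes KRT8 was called (0.80), and of 3 erythroid genes HBB (0.15) and AHSP (-0.18) were called. Each of these 3 calls was lost in some fits that left out 1 line. CD3D, CD14 and LYZ differed by -0.06, -0.17 and -0.28 and were not called.

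Several genes that mark subtypes of myeloma varied widely among the MM lines. FGFR3, a receptor kinase brought under immunoglobulin control by a translocation in part of myelomas, was at 14.34 in KMS-11, 13.75 in OPM-2, 11.95 in NCI-H929 and 8.68 in LP-1. The other 8 MM lines lay between 4.27 and 4.98 and the DLBCL lines between 4.28 and 4.74. The difference of the means, 2.63 ± 1.02, was not called (adjusted p = 0.095), with SDs of 3.96 and 0.13. Among the MM lines NSD2, the methyltransferase affected by the same translocation, was highest in the same 4 lines. It was at 11.68 in OPM-2, 11.08 in KMS-11, 10.97 in NCI-H929 and 10.15 in LP-1. The DLBCL lines OCI-Ly7 (10.31) and SU-DHL-8 (10.19) lay above LP-1, and KMS-12-PE (9.99) was the next MM line. The ranges of NSD2 overlapped and it was not called (0.26).

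MAF, a transcription factor also activated by translocation in some myelomas, fell into a high and a low set of MM lines. It was at 9.12 to 12.42 in KMM-1, KMS-11, LP-1, MM1S, NCI-H929, OPM-2 and RPMI-8226 and at 4.65 to 5.11 in KMS-12-BM, KMS-12-PE, MOLP-8, U-266 and AMO-1, against 4.42 to 5.67 in DLBCL (difference 3.52 ± 0.83, adjusted p = 0.0057). Of the D-type cyclins that drive entry into the cell cycle, CCND1 was high in KMS-12-BM (11.66), U-266 (11.39), MOLP-8 (11.32) and KMS-12-PE (10.77). CCND2 was low in KMS-12-BM (3.62), KMS-12-PE (3.90) and MOLP-8 (4.55) and at 11.23 to 13.31 in the other 9 MM lines. U-266 was thus the one MM line with high values of both. In DLBCL, CCND2 was high in HBL-1 (13.77) and OCI-Ly3 (12.89) and at 3.59 to 5.80 in the rest. CCND2 was called (4.91 ± 1.38, adjusted p = 0.02) and CCND1 was not (2.29 ± 0.81, adjusted p = 0.067), though CCND1 was called when KMM-1, KMS-11, LP-1 or OPM-2 was left out. The genes of this paragraph and of the FGFR3 account were chosen after their values were seen.

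**Figure D4:**
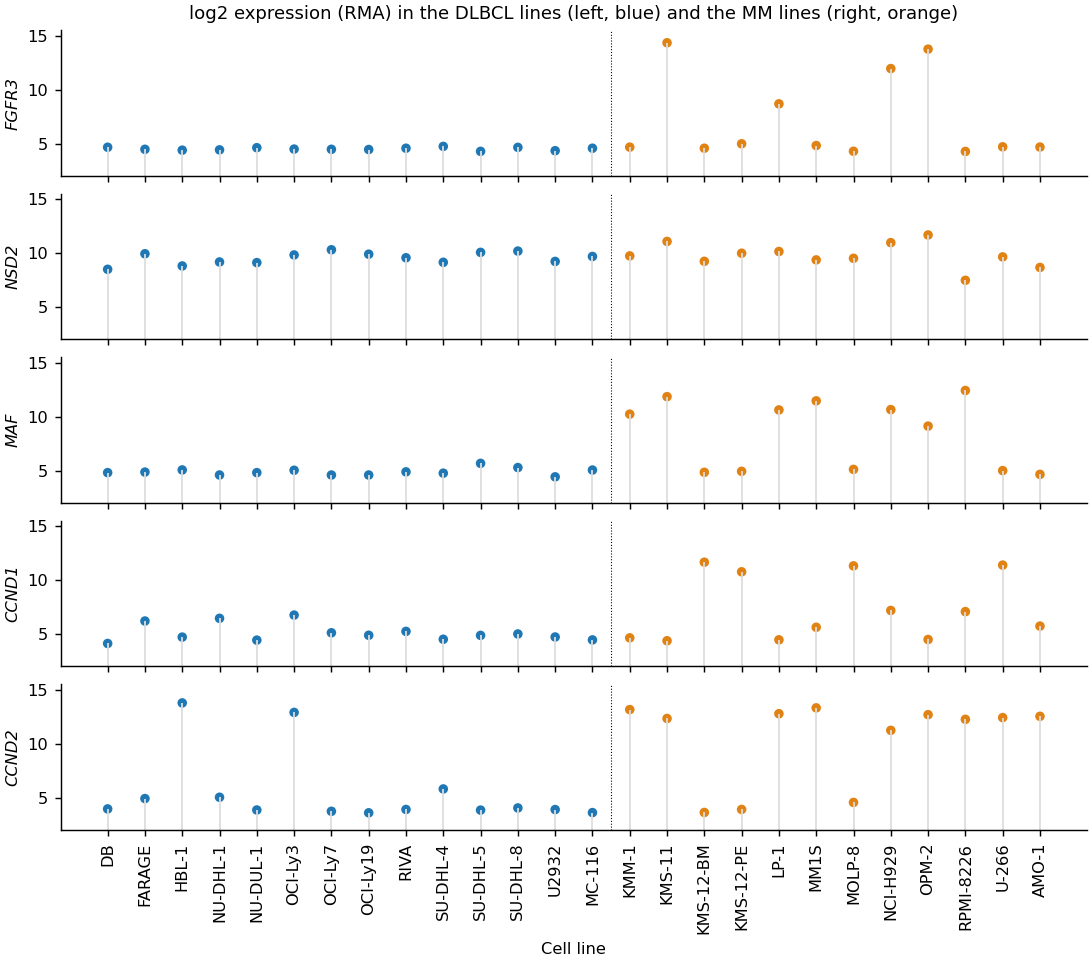
Log2 RMA value of every line (1 point a line) for FGFR3, NSD2, MAF, CCND1 and CCND2, DLBCL and MM lines side by side. High FGFR3 is limited to KMS-11, OPM-2, NCI-H929 and LP-1 among the lines measured, and the MM lines with CCND2 at 3.62 to 4.55 are KMS-12-BM, KMS-12-PE and MOLP-8.

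The spread within the groups differed by gene. The SD was larger among the MM lines in 10297 of all genes (52.1%), in 922 of those called higher in MM (66.4%) and in 526 of those called lower (47.9%). In a small share of the called genes a single line kept the groups from separating. Of 2437 called genes with overlap, counted without XIST and Y-linked genes, 139 would separate if 1 line were left out, 110 of them by 1 line only. KMS-12-BM broke 16 of these separations, the most of any line, and 14 of them were in genes higher in MM. Among them were SDC1, IL6ST and ST3GAL6, a sialyltransferase, which was at 3.25 in KMS-12-BM against an MM median of 9.05. NU-DUL-1 broke 9, including SCARB2, a lysosomal membrane protein, at 11.05 against a DLBCL median of 6.74. AMO-1, OCI-Ly3 and RPMI-8226 broke 7 each. Those of AMO-1 included CADPS2, NAP1L2 and CLEC2D, in which it lay within the DLBCL range. KMS-12-BM was also the lowest MM line over the lists of translocation (11.03), degradation (9.81) and vesicle traffic (9.97). It was not low over all secretory lists, being at 10.91 over N-glycosylation, second to NCI-H929 (10.95), and at 11.20, equal to the MM median, over the chaperones, and it was the highest MM line for HSPA5 (13.27), HSP90B1 (12.46) and CALR (11.20). Leaving it out raised the genes called higher in vesicle traffic from 13 to 18 and in translocation from 12 to 13.

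The called genes were unevenly spread over the genome. On the long arm of chromosome 1, 140 of 881 measured genes were higher in MM (15.9%, against 7.04% of all genes with a chromosome) and 22 lower (2.5%, against 5.57%). The short arm did not show this, with 54 of 1045 higher (5.17%) and 80 lower (7.66%). The long arm carries 4 of the genes higher without overlap, ATP8B2, SCAMP3, ATF6 and PSEN2, and 1 of those lower, PTPRC (-6.24). The genes UAP1, IL6R, KRTCAP2 and SSR2 also lie on chromosome 1. Chromosome 13 showed the opposite, with 5 of 401 genes higher (1.25%) and 71 lower (17.7%), and on chromosome 14 24 of 611 were higher (3.93%) and 66 lower (10.8%). The median differences were small, 0.07 on the long arm of chromosome 1 and -0.07 on chromosomes 13 and 14. Copy number was not measured here, and neighbouring genes are not independent of each other.

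The shift on chromosome 13 was not shared by all MM lines. The mean over its genes, relative to the DLBCL mean, was between -0.46 (U-266) and -0.20 in 10 MM lines, 0.00 in MOLP-8 and 0.12 in AMO-1, while the DLBCL lines lay between -0.16 and 0.17. On the long arm of chromosome 1 the MM lines ran from 0.01 (KMS-12-BM) to 0.34 (RPMI-8226) and the DLBCL lines from -0.14 to 0.16. Within the lines in RPMI with 10% FBS the shares were 9.65% higher on the long arm of chromosome 1, against 3.36% of all genes, and 14% lower on chromosome 13, against 2.3%. Within the lines from DSMZ they were 6.02% against 2.45% and 5.74% against 2.11%. The chromosomes named here were chosen after the counts of all were seen.

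**Figure D5:**
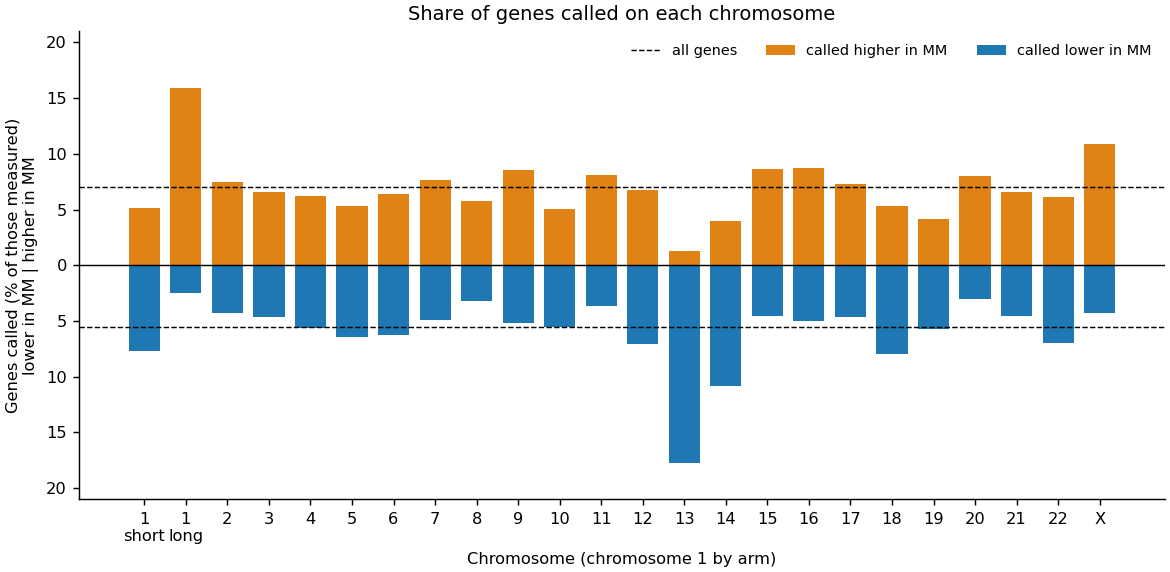
Percent of measured genes called higher (upwards) and lower (downwards) in MM for each chromosome, with chromosome 1 split by arm and dashed lines at the shares of all genes, 7.04% and 5.57%. The long arm of chromosome 1 has the share of 15.9% higher and chromosome 13 that of 17.7% lower.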

How the data were processed

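Total RNA of 26 untreated cell lines was hybridised to Affymetrix HG-U133 Plus 2.0 arrays, with 1 array for each line. The deposited values are log2 expression after RMA, which the authors ran with the affy package (R 3.0.1 per the submitters' processing notes). They carry no depth or detection calls, which arrays were normalised together is not given in the sources used here, and the number of lines limits the precision. The labels give no batch or scan date. Without the 62 control probe-sets, 54613 were fitted with limma 3.58.1 (lmFit and eBayes, R 4.3.3, two-sided, no covariates) and adjusted by Benjamini-Hochberg over all of them, with calls at an adjusted p under 0.05. The code was tested on simulated data. Of the probe-sets, 41091 had 1 gene symbol, 1801 several and 11721 none in GEO's annotation, and symbols were updated through gene IDs to RefSeq (41037 matched). A gene is its probe-set of the highest mean over all lines, which gave 19775 genes. Probe-sets whose names end in _x_at can match other transcripts. Of 769 genes in the 35 lists, 53 had no probe-set of 1 symbol. Tables and plots used Python 3.11.15, numpy 2.4.6, pandas 2.3.3 and matplotlib 3.10.9.

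Named were PAX5, MS4A1, SDC1 and PRDM1, the 10 genes without overlap of the largest difference and the 10 of the widest gap in each direction, the 3 called members of the smallest p in each direction of each list (the member of the smallest p where none was called), and the 3 genes of the largest difference for each of 3 lines that broke most separations (AMO-1 tied with OCI-Ly3 and RPMI-8226 for the third place and was taken by name order). Other genes were named after their values were seen, among them FGFR3, NSD2, MAF, CCND1, CCND2, XBP1, IRF4, MZB1, ITGB7, SLAMF7, LGALS3, DNMT1 and all genes given as not called. The members and lists were chosen with earlier results of these data known. Alternatives changed the probe-set of a gene, the filter on dim values, the scaling, the variance prior, the threshold, the medium, the source of the lines and the lines in the fit.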

Additional observations from a re-analysis of the deposited data

How the results depend on the processing

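Of 175 named genes called over all lines, 167 kept direction and call with each gene taken from its most variable probe-set in the DLBCL group, 174 with arrays centred on their medians, 175 after another quantile normalisation, 173 with a variance trend and robust prior, 165 without MC-116 and AMO-1, 168 without KMS-12-PE, 174 with a term for 15% serum or more, 123 in the lines in RPMI with 10% FBS, 119 in the lines from DSMZ and 158 in every fit that left out 1 line. Of the 155 left by the filter on dim values, 154 did. None of them changed direction. These genes were mostly named by their p, difference or gap, or after their values were seen. The counts kept are therefore not those of an unbiased sample of the called genes. ATF5, CCR7, IL4R and SOCS2 were among those not called in either subset, RPMI with 10% FBS or DSMZ. IRF4, TNFRSF17 and CREB3L2 were among those that lost their calls in the first only. BTK, MAF, CCND2 and ME1 were among those that lost theirs in the second only. MZB1, not called over all lines (0.98), turned to -0.31 in the lines in RPMI with 10% FBS. A log2 difference over 1 left 2600 probe-sets and 1138 genes. In RPMI with 10% FBS, 2642 probe-sets and 1115 genes were called and 787 and 341 did not overlap. In the lines from DSMZ, 2186 and 902 were called and 670 and 269 did not overlap. Both subsets have fewer lines, which makes calls rarer and separations more frequent. Leaving out 1 line gave 5499 to 6442 probe-sets and 2212 to 2566 genes called, and 105 to 157 probe-sets and 50 to 68 genes without overlap, with 157 probe-sets without KMS-12-BM. Scaling moved the median of all probe-sets by at most 0.010. The labels give no pairing of MM with DLBCL lines, so the fits were unpaired. The replicate numbers used follow accession order and carry no pairing.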
